A study of Homo sapiens and Mus musculus with 16 samples.

Results

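The transcripts described here encode 9 RNA-binding proteins of neurons: the neuronal ELAVL proteins (ELAVL2, ELAVL3 and ELAVL4), NOVA1 and NOVA2, the RBFOX proteins (RBFOX1, RBFOX2 and RBFOX3) and CELF4. They were taken by symbol, by a rule that holds no measured value, and all 9 were among the 22286 genes of the human count table. RNA was sequenced from P-bodies, which are cytoplasmic granules of RNA and protein, and from the cytoplasm of the same cells before sorting. P-bodies were sorted as fluorescent particles carrying LSM14A, a P-body protein, fused to GFP. There were 16 libraries in 8 groups, 2 P-body and 2 cytoplasm libraries for each of 4 cell types.

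Day-20 neurons and liver bud progenitors were both differentiated from UCLA4, a human embryonic stem (ES) cell line in which GFP-LSM14A had been integrated at the AAVS1 locus. HEK293T, a human embryonic kidney line, and KH2, a mouse ES cell line (mESC) cultured with serum and LIF, had received GFP-LSM14A by lentivirus under an EF1a promoter. All groups therefore carried the fusion protein, and no group lacked it. The molecule label was polyA RNA for neurons and liver bud progenitors and total RNA for HEK293T and mESC, so cell type and molecule label cannot be told apart when these pairs are compared. The titles of the HEK293T and mESC libraries also carry the word random. The paper describes a preparation with random primers beside a polyA-directed one, so library preparation may differ together with the label. The labels do not say whether the replicates came from separate cultures, and p-values then measure only the spread between these libraries.

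The neuronal ELAVL proteins, also called Hu antigens, bind AU-rich and U-rich stretches and are known for stabilizing and promoting translation of their targets during neuronal differentiation. NOVA1 and NOVA2 bind clusters of YCAY with KH domains and direct alternative splicing of synaptic transcripts. RBFOX proteins bind UGCAUG and control splicing in neurons, muscle and heart. RBFOX3 is the NeuN antigen used to mark mature neurons, and RBFOX2 is the broadly expressed member. CELF4 binds the 3′ untranslated regions of many synaptic transcripts.

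Library totals lay between 6368953 and 17972284 counts, so that 3 counts, taken as the floor of detection, corresponded to 0.167 to 0.471 CPM, the counts of a gene scaled to a fixed library total. The 12 neuron markers summed to between 12960 and 13660 CPM in the neuron cytoplasm and between 10220 and 10310 CPM in neuron P-bodies, against 176 to 286 CPM in the other human libraries. The 10 neural progenitor markers summed to between 3908 and 4009 CPM in neuron P-bodies and between 2033 and 2147 CPM in the neuron cytoplasm. None was at the floor in neurons. In the other human libraries the same markers summed to between 2381 and 3618 CPM. The highest of them in neuron P-bodies were MKI67 (1872 and 2035 CPM) and TOP2A (825.5 and 898 CPM). Of the 10 markers, PAX6, SOX2, TOP2A and MKI67 were higher in neuron P-bodies and NES and MSI1 were lower. Over the pluripotency markers the sums were 15.6 to 16.4 CPM in neuron P-bodies and 3.57 to 3.96 CPM in the neuron cytoplasm, and over 9 glial markers 118 to 120.2 CPM and 143 to 172 CPM, with OLIG2 at the floor in both. The part of progenitor or other cells in the results on neurons was not tested, and in such bulk samples fewer cells of a type and less RNA per cell cannot be told apart. The 8 liver bud markers summed to 187 to 195 CPM in liver bud P-bodies and 393.5 to 406.8 CPM in the liver bud cytoplasm. In neurons and HEK293T they summed to 11.1 CPM or less. Of them only ALB was at the floor in the liver bud libraries, where the 3 pluripotency markers summed to between 775 and 894 CPM. Most of that sum was LIN28A, at 657 to 747 CPM, with POU5F1 at 82.5 to 95.4 CPM and NANOG at 32.75 to 51.8 CPM. The neuron P-body replicates differed more from each other (Spearman rho across genes 0.911) than those of any other group (0.962 or more).

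The members of each family encode closely related proteins. Base composition differed between some of them, such as NOVA1 and NOVA2 (39.3% and 57.7% GC over the MANE Select transcript). It was nearly equal in others, such as RBFOX1 and RBFOX2 (47.5% and 48.4%). Translated from their MANE Select coding sequences and aligned, the ELAVL proteins were 83.8% to 90.5% identical to each other, NOVA1 and NOVA2 were 80.1% identical, and the RBFOX proteins 73.1% to 80.1%. To show how the coding sequences differ, the first stretch of 10 codons that encodes the same 10 amino acids in every member of a family and lies within an exon of each is printed below, from the MANE Select transcripts of GENCODE 44 (hg38), read 5′ to 3′ on the coding strand. Capitals mark G or C at the third position of a codon, where most base choices leave the amino acid the same.
ELAVL2: gaCagCaaGacCaaCttaatagtCaaCtaC
ELAVL3: gaCagCaaGacCaaCctCatCgtCaaCtaC
ELAVL4: gaCagCaaaacCaaCctCatCgtCaaCtat
NOVA1: tattttctaaaGgttctCatacctagttat
NOVA2: taCttCctGaaGgtGctGatCccCagCtaC
RBFOX1: ccCaaGcgGctGcatgtCtcCaatatCccC
RBFOX2: ccGaaacgGctGcatgtCtctaatattcct
RBFOX3: ccCaaGcgGctacaCgtCtcCaaCatCccC

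These stretches are at chr9:23762100-23762129 (ELAVL2, minus strand), chr19:11466702-11466731 (ELAVL3, minus), chr1:50145074-50145103 (ELAVL4, plus), chr14:26595513-26595542 (NOVA1, minus), chr19:45961113-45961142 (NOVA2, minus), chr16:7579852-7579881 (RBFOX1, plus), chr22:35781639-35781668 (RBFOX2, minus) and chr17:79106690-79106719 (RBFOX3, minus). The NOVA pair stood furthest apart: NOVA1 had G or C at 2 of these 10 places and NOVA2 at all 10. ELAVL3 also had it at all 10, ELAVL2 and ELAVL4 at 8. RBFOX2 had it at 4, RBFOX1 at 8 and RBFOX3 at 9. Over the whole coding sequence the same order held within the NOVA and RBFOX families, with G or C at the third position of 39.8% of codons in NOVA1 and 84.4% in NOVA2, and at 51.3% in RBFOX2, 55.0% in RBFOX1 and 69.2% in RBFOX3. For the ELAVL family it was 45.8% in ELAVL2, 60.2% in ELAVL4 and 80.7% in ELAVL3, beside a median of 60.4% over 17338 genes with a MANE Select transcript.

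In day-20 neurons the 9 transcripts divided between the fractions. ELAVL2, ELAVL4 and RBFOX2 were higher in P-bodies, ELAVL3, NOVA2, RBFOX1, CELF4 and NOVA1 were lower, and RBFOX3 was not called (edgeR adjusted p of 0.05 or more). Over all genes tested, 14.6% were called higher and 14.1% lower in neuron P-bodies, so that 50.8% of calls were higher, against 62.0% when counts were scaled by library size only. For genes averaging 5 CPM or more in the neuron libraries, a level that all 9 members reached, the shares were 23.4% higher and 28.9% lower. The calls on NOVA1 and CELF4 were not held under several other settings, given with each gene below. With RLE, library size only, filterByExpr or DESeq2, 3 members were lower, and with a replicate block 5 were.

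**Figure D1:**
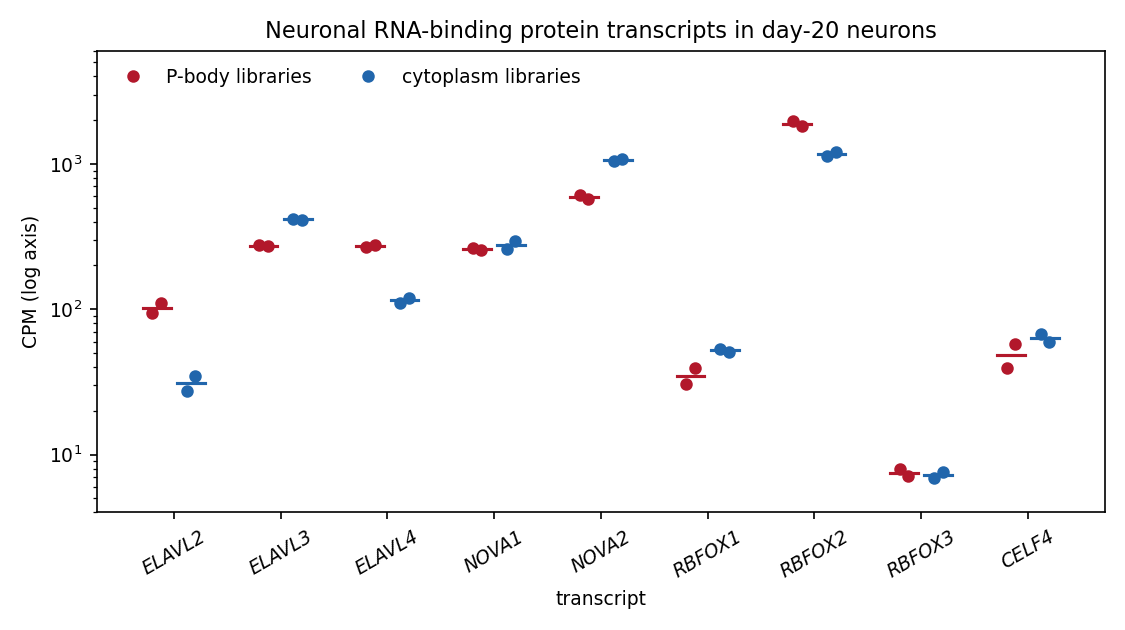
CPM of each transcript in the neuron libraries, on a log axis. Points are libraries (2 per fraction), and short lines are means; red is P-body and blue is cytoplasm. ELAVL2, ELAVL4 and RBFOX2 stand above their cytoplasm values in both P-body libraries, and ELAVL3, NOVA2, RBFOX1 and CELF4 below, while the NOVA1 and RBFOX3 points overlap.

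ELAVL2 (chr9:23690104-23826337) was measured at 94.3 and 111 CPM in the P-body libraries and at 27.3 and 34.7 CPM in the cytoplasm. Both P-body libraries lay far above both cytoplasm libraries. The log2 fold change, P-body over cytoplasm, was 1.57 ± 0.15 (SE, 2 libraries per fraction; edgeR adjusted p = 5.4e-06), the highest of the 9. ELAVL4 (chr1:50024029-50203772), the protein of which is HuD, was at 269.5 and 277 CPM in P-bodies and at 110.5 and 119.7 CPM in the cytoplasm, again without overlap. Its log2 fold change was 1.08 ± 0.09 (edgeR adjusted p = 2e-06).

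ELAVL3 (chr19:11451326-11481046), which encodes HuC, went the other way. It was at 278 and 270.4 CPM in P-bodies and at 419.9 and 414 CPM in the cytoplasm, and no P-body library reached a cytoplasm library. The log2 fold change was -0.77 ± 0.08 (edgeR adjusted p = 1.4e-05). Members of a family of near relatives were thus found on opposite sides, with ELAVL2 and ELAVL4 higher in P-bodies and ELAVL3 lower. No stretch of 31 bases of the MANE Select transcripts of these genes occurs in a transcript of another member, so reads of that length would not be shared between them.

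The make-up of the ELAVL transcripts differed accordingly between fractions. As a share of the summed CPM per kilobase of the longest transcript, ELAVL3 made up 70.7% ± 1.9 (SD, n = 2) in the neuron cytoplasm and 38.1% ± 1.5 in neuron P-bodies. ELAVL4 went from 23.1% ± 0.91 in the cytoplasm to 45.0% ± 0.028 in P-bodies, and ELAVL2 from 6.24% ± 0.95 to 16.9% ± 1.6. The shares depend on the length used. By the median transcript length of each gene, an alternative chosen after seeing the data, ELAVL3 stayed the most abundant in both fractions, at 86.1% ± 0.96 in the cytoplasm and 62.0% ± 1.3 in P-bodies, while ELAVL4 was at 12.1% ± 0.66 and 31.5% ± 0.59 and ELAVL2 at 1.78% ± 0.30 and 6.46% ± 0.72. In liver bud progenitors the ELAVL3 share was 65.2% ± 1.5 in the cytoplasm and 65.5% ± 2.6 in P-bodies per longest transcript, a difference smaller than the spread between replicates. In HEK293T, ELAVL2 made up at least 96.1% in every library per longest transcript and at least 90.2% per median length.

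**Figure D2:**
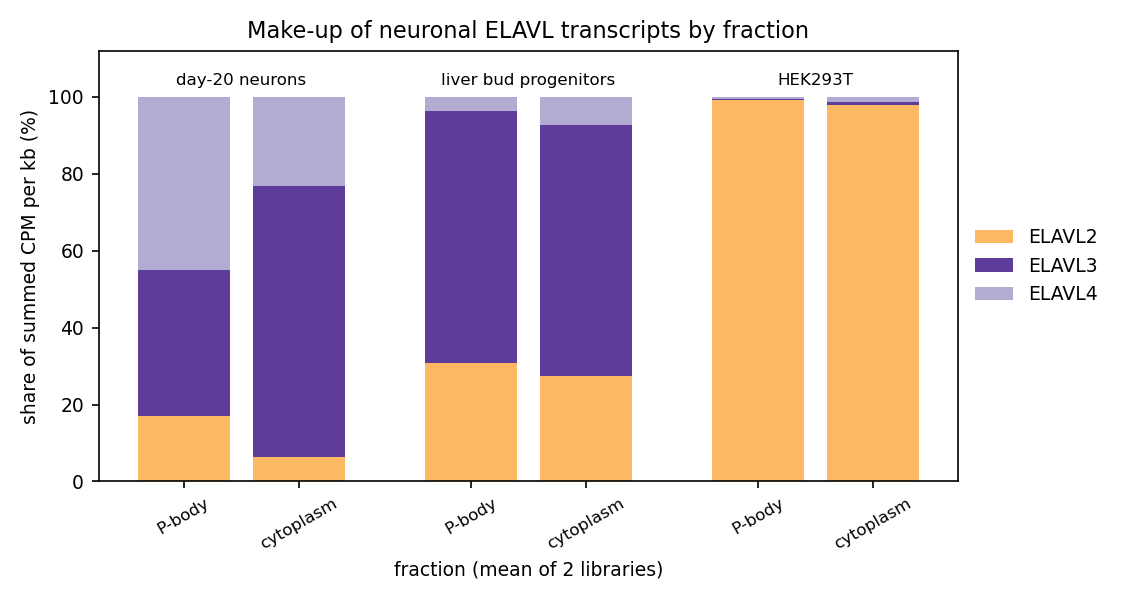
Share of ELAVL2, ELAVL3 and ELAVL4 in their summed CPM per kilobase of longest transcript, in percent, as the mean of 2 libraries for each fraction of the 3 human cell types. In neurons ELAVL3 falls from 70.7% in the cytoplasm to 38.1% in P-bodies, in liver bud progenitors it is 65.2% and 65.5%, and in HEK293T nearly the whole bar is ELAVL2.

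NOVA2 (chr19:45933734-45974044) was measured at 615 and 574 CPM in neuron P-bodies and at 1049 and 1072 CPM in the cytoplasm. Both cytoplasm libraries were well above both P-body libraries, and the log2 fold change of -0.9997 ± 0.08 was the lowest of the 9 (edgeR adjusted p = 7.4e-07). NOVA1 (chr14:26443090-26598033) was at 264 and 254 CPM in P-bodies and at 261 and 296 CPM in the cytoplasm, so that the fractions overlapped on the CPM scale. Its log2 fold change was -0.27 ± 0.09 (edgeR adjusted p = 0.042). That call was lost with other size factors or filters (adjusted p between 0.10 and 0.49 with RLE, with library size only, with filterByExpr and with DESeq2) and without P-body replicate 2 (adjusted p = 0.077), cytoplasm replicate 1 (0.082) or cytoplasm replicate 2 (0.32).

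RBFOX2 (chr22:35738736-36028824) was the most abundant member, at 1964 and 1826 CPM in neuron P-bodies and at 1125 and 1198 CPM in the cytoplasm. The fractions did not overlap, and the log2 fold change was 0.54 ± 0.07 (edgeR adjusted p = 7.9e-05). RBFOX1 (chr16:5239802-7713340) was at 30.7 and 39.2 CPM in P-bodies and at 53.7 and 51.1 CPM in the cytoplasm. Its log2 fold change was -0.75 ± 0.17 (edgeR adjusted p = 0.0046), and without cytoplasm replicate 1 it was -0.70 and no longer called (adjusted p = 0.059). The related RBFOX transcripts thus lay on opposite sides as well. They share 17 stretches of 31 bases, 0.35% of the RBFOX1 and 0.237% of the RBFOX2 stretches, so few reads could be assigned to the wrong one.

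RBFOX3 (chr17:79089345-79611051) was low in these neurons, with 7.99 and 7.08 CPM in P-bodies and 6.885 and 7.54 CPM in the cytoplasm, from 67 to 79 counts per library. The libraries of the fractions overlapped. The log2 fold change was -0.10 ± 0.37, with a 95% interval from -0.89 to 0.69. Changes in either direction within that interval are thus compatible with these libraries.

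CELF4 (chr18:37243040-37565827) was at 39.1 and 57.6 CPM in neuron P-bodies and at 67.8 and 59.3 CPM in the cytoplasm. The fractions did not overlap, but P-body replicate 2 came close to cytoplasm replicate 2. The log2 fold change was -0.56 ± 0.18 (edgeR adjusted p = 0.035). Without P-body replicate 1 it was -0.32 (adjusted p = 0.086) and without cytoplasm replicate 1 it was -0.44 (adjusted p = 0.24), and with RLE, library size only, filterByExpr or DESeq2 the adjusted p lay between 0.057 and 0.12. Exons of 3 annotated antisense genes overlap CELF4 and those of 1 overlap RBFOX1. The strand setting of the counting is not given in the sources used here, so reads of these genes cannot be told apart from reads of their antisense partners. Exons of 1 annotated gene on the same strand overlap ELAVL3, and how many reads lie in that overlap was not examined.

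The members were set beside all genes of like GC content. The longest transcripts of ELAVL2 and ELAVL4 had 36.3% and 37.6% GC, below all but 3.78% and 7.18% of the 20610 genes with a transcript, and both were higher in P-bodies. In their GC decile (30.2% to 38.1%) the quartiles of log2 fold change over genes at 5 CPM or more were 0.14 and 1.55, so that ELAVL4 at 1.08 lay between them and ELAVL2 at 1.57 just above. ELAVL3 and NOVA2, with 58.1% and 58.2%, were lower in P-bodies, and both lay between the quartiles of -1.06 and -0.46 of their decile (56.5% to 60.2%). CELF4, at 50.1% GC, also lay between its quartiles of -0.78 and 0.018. The other members lay outside. NOVA1, at 39.3% GC, had a log2 fold change of -0.27, below the quartiles of 0.018 and 1.33 of its decile. RBFOX1 and RBFOX2 fell in the same decile (47.5% and 48.4% GC, quartiles -0.64 and 0.27), RBFOX1 below it and RBFOX2 above it. RBFOX3, at 62.4% GC, lay above its quartiles of -1.23 and -0.62, though its SE of 0.37 was wide. These positions are a description and carry no test.

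**Figure D3:**
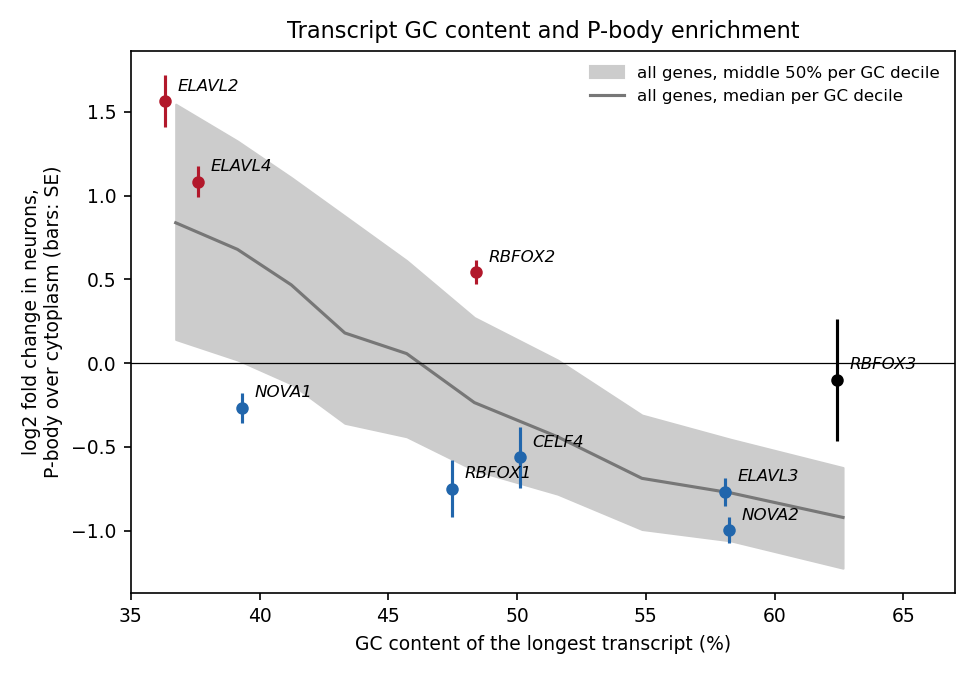
Log2 fold change in neurons (P-body over cytoplasm, bars are SE) against the GC content of the longest transcript in percent. Red points are higher in P-bodies, blue are lower and black is not called; the gray line and band are the median and the quartiles of all genes with at least 5 CPM in 10 GC deciles, from a median of 0.84 in the lowest to -0.92 in the highest.

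The 3′ untranslated regions of the MANE Select transcripts ran from 1538 bases in RBFOX3 to 6129 bases in NOVA2, all above a median of 1208 bases over all such transcripts. In the last 1000 bases of the longest transcript, the RBFOX motif TGCATG occurred in ELAVL4, NOVA1 and RBFOX1, that is in 3 of 9 members and in 25.6% of all genes with a transcript of that length. The AU-rich heptamer TTTATTT occurred in ELAVL2, ELAVL3, ELAVL4, NOVA1, RBFOX1 and CELF4, 6 of 9, against 32.6% of all genes. Only the sense strand was searched. A match is a run of letters in this window and not a measured binding site. The AU-rich heptamer was found on both sides of the P-body comparison, in ELAVL2 and ELAVL4 as well as in ELAVL3 and RBFOX1.

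Other RNA-binding proteins of the same families or of neuronal splicing were also divided in neurons. Of 23 listed, 6 were higher in P-bodies, 10 were lower and 7 were not called, and their median log2 fold change was -0.31. Over all genes tested the median was 0.19, with 14.6% higher and 14.1% lower, and over genes averaging 5 CPM or more in neurons it was -0.21, with 23.4% higher and 28.9% lower, so that the list's median lay near that of the expressed genes. FXR1, a relative of the fragile X protein, had the highest called value at 2.02 ± 0.12, followed by the splicing regulator MBNL1 at 1.32 ± 0.18, STAU2, a double-stranded RNA-binding protein of dendritic granules, at 0.66 ± 0.11, and FMR1 at 0.42 ± 0.13. The lowest called values were those of KHDRBS2 (-1.43 ± 0.48) and SRRM3 (-1.42 ± 0.24), both splicing regulators of neurons, then CELF3 (-1.13 ± 0.09) and FXR2 (-0.81 ± 0.17). KHDRBS2 was at a low level, with means of 2.94 CPM in P-bodies and 7.05 CPM in the cytoplasm.

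Of 20 listed transcripts known to be bound or spliced by the members, 2 were higher in neuron P-bodies and 7 were lower. The other 11 were not called, and the median log2 fold change of the list was -0.27. Over genes averaging 5 CPM or more the median was -0.21, with 23.4% higher and 28.9% lower. NRN1, a neuritin transcript bound by ELAVL4, was higher (1.06 ± 0.10), and so was APLP2 (0.22 ± 0.07), which NOVA2 is known to splice. The lowest called values were those of GRIN1 (-1.95 ± 0.57), AGRN (-1.71 ± 0.11), MSI1 (-1.05 ± 0.11) and MAPT (-0.95 ± 0.10), which encode an NMDA receptor subunit, agrin, a translational regulator of progenitors and tau. GRIN1 was at a low level, with means of 1.51 CPM in P-bodies and 5.2 CPM in the cytoplasm. Of the 12 neuron markers, none was higher in P-bodies, 7 were lower and 5 were not called, with a median of -0.74, beside 23.4% higher, 28.9% lower and a median of -0.21 over genes averaging 5 CPM or more. GAP43, MAPT and SNAP25 are both neuron markers and listed targets, and MSI1 is both a progenitor marker and a listed target. The counts of these lists are therefore not independent.

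Across the 4 cell types 2 members were called in the same direction throughout. ELAVL2 was higher in P-bodies of every cell type and NOVA2 was lower in every one. In liver bud progenitors, ELAVL2 was at 12.9 and 16.0 CPM in P-bodies and 8.48 and 5.91 CPM in the cytoplasm (log2 fold change 1.204 ± 0.23), and in HEK293T at 50.5 and 57.1 CPM against 33.6 and 32.8 CPM (0.83 ± 0.10). Mouse Elavl2 was at 63.0 and 62.2 CPM against 26.9 and 30.5 CPM (1.53 ± 0.09). NOVA2 was at 14.5 and 10.4 CPM against 35.6 and 37.7 CPM in liver bud progenitors (-1.38 ± 0.16), at 4.58 and 3.62 CPM against 8.29 and 9.56 CPM in HEK293T (-0.9974 ± 0.22) and, as mouse Nova2, at 5.55 and 5.98 CPM against 13.5 and 11.98 CPM in mESC (-0.74 ± 0.20). In none of these did the P-body and cytoplasm libraries overlap, and each was called (edgeR adjusted p of 0.0032 or less).

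In liver bud progenitors 2 members were higher in P-bodies, 1 was lower and 6 were not called, beside 21.4% higher and 17.1% lower over all genes. Over genes averaging 5 CPM or more there, a level that not every member reached, 41.6% were higher and 27.1% lower. Besides ELAVL2 and NOVA2, ELAVL3 was called: it was at 35.5 and 37.0 CPM in P-bodies and at 20.7 and 19.7 CPM in the cytoplasm, a log2 fold change of 1.03 ± 0.14 (edgeR adjusted p = 2e-09). RBFOX2 was at 289 and 301 CPM in P-bodies and at 360.2 and 367 CPM in the cytoplasm, a log2 fold change of -0.12 ± 0.06 that was not called, and of -0.30 and called when counts were scaled by library size only. NOVA1, at 20.4 and 27.7 CPM against 28.1 and 23.6 CPM, overlapped between fractions (0.09 ± 0.15, not called). ELAVL4, RBFOX1, RBFOX3 and CELF4 had at most 34 counts in any liver bud library and were not called.

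In HEK293T 3 members were higher in P-bodies, 1 was lower and 5 were not called, where 19.3% of all genes were higher and 22.8% lower. Over genes averaging 5 CPM or more there, a level that not every member reached, 39.0% were higher and 40.5% lower. RBFOX2 was at 381 and 377 CPM in P-bodies and at 314 and 319.8 CPM in the cytoplasm (0.39 ± 0.06, edgeR adjusted p = 2.3e-08). CELF4 was called at 34 and 27 counts against 9 and 9 (1.37 ± 0.49, edgeR adjusted p = 0.019), but with DESeq2 (adjusted p = 0.085), without P-body replicate 1 (1.07, adjusted p = 0.23) or without cytoplasm replicate 1 (1.36, adjusted p = 0.056) the call was lost. NOVA1, at 20.3 and 24.1 CPM against 21.6 and 25.3 CPM, overlapped between fractions (0.06 ± 0.14, not called). ELAVL3, ELAVL4, RBFOX1 and RBFOX3 had 10 counts or fewer in each HEK293T library, and their folds are not given here.

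Of all genes in mouse ES cells, 25.8% were higher in P-bodies and 20.6% were lower. Over genes averaging 5 CPM or more, a level that not every member reached, the shares were 42.4% and 23.3%. Of the members, 5 were higher in P-bodies, 2 were lower and 2 were not called. Besides Elavl2, the higher ones were Elavl4 at 7.25 and 6.90 CPM against 3.68 and 3.44 CPM (1.39 ± 0.24, edgeR adjusted p = 3.7e-05), Celf4 at 8.79 and 6.44 CPM against 5.03 and 3.79 CPM (1.19 ± 0.24, adjusted p = 2.6e-04), Nova1 at 20.6 and 18.9 CPM against 14.6 and 10.4 CPM (1.06 ± 0.17, adjusted p = 1e-05) and Elavl3 at 4.01 and 4.97 CPM against 2.70 and 3.20 CPM (1.00 ± 0.29, adjusted p = 0.0070). All of these were without overlap between fractions. The call on Elavl3 was lost without P-body replicate 2 (0.87, adjusted p = 0.086), with library size only (0.60, adjusted p = 0.084) and with DESeq2 (adjusted p = 0.093). Rbfox2 was at 109.7 and 125.1 CPM in P-bodies and at 155 and 172 CPM in the cytoplasm, without overlap, but its log2 fold change of -0.08 ± 0.07 was not called, and it was called lower with library size only (-0.48) and with filterByExpr (-0.16). Rbfox3 had 4 to 8 counts per library and was not called. Rbfox1 was not detected in P-bodies, with 0 counts in each library, and had 2 and 8 counts in the cytoplasm. No fold is given, since cytoplasm replicate 1, with 2 counts, was itself under the floor of 3 counts. It was called lower in P-bodies (edgeR adjusted p = 0.017), but not with DESeq2 (adjusted p = 0.089) or without cytoplasm replicate 2 (adjusted p = 0.22).

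**Figure D4:**
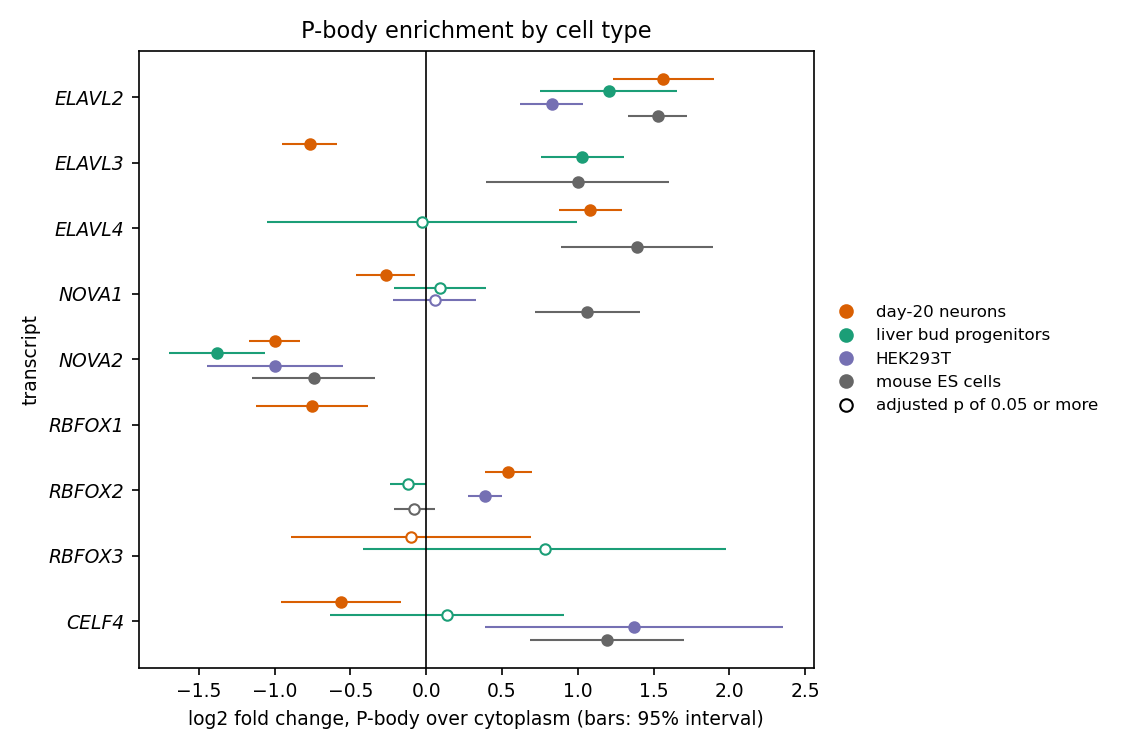
Log2 fold change of P-body over cytoplasm with its 95% interval for each transcript in day-20 neurons, liver bud progenitors, HEK293T and mouse ES cells; open points were not called, and the 7 values of genes with 10 counts or fewer in every library of a cell type are not drawn. ELAVL2 lies to the right of 0 and NOVA2 to the left in all 4 cell types, and ELAVL3 lies to the left in neurons and to the right in liver bud progenitors and mouse ES cells.

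Whether P-body enrichment differed between neurons and other human cells was tested as an interaction over 8 libraries. These tests and the comparisons within a cell type use the same libraries and are not independent of each other. Relative to liver bud progenitors, which share line and molecule label with the neurons, 2 members were more enriched in neurons, 1 was less and 6 were not called, beside 9.21% and 8.5% of all genes. Over genes averaging 5 CPM or more in these libraries, a level that RBFOX3 did not reach, the shares were 13.9% and 16.2%. ELAVL3 was the member that turned, from 1.03 in liver bud progenitors to -0.77 in neurons, an interaction of -1.81 ± 0.13 (edgeR adjusted p = 2.8e-07) that was called under every alternative. RBFOX2 was more enriched in neurons by 0.65 ± 0.09 (adjusted p = 1.6e-04), also called under every alternative. ELAVL4 was more enriched by 1.12 ± 0.35 (adjusted p = 0.037), but it had between 8 and 19 counts in the liver bud libraries. Without liver bud cytoplasm replicate 2 its interaction was 0.49 (adjusted p = 0.68), and the call was also lost without either liver bud P-body replicate (adjusted p = 0.13 and 0.089) or either neuron cytoplasm replicate (0.092 and 0.084). For ELAVL2, higher in P-bodies of both cells, the interaction was 0.35 with a 95% interval from -0.23 to 0.94, and for NOVA2, lower in both, it was 0.37 with an interval from 0.04 to 0.70 (adjusted p = 0.12), called with library size only (0.73), with filterByExpr (0.52) and without liver bud P-body replicate 1 (0.62).

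Relative to HEK293T, where molecule label and cell type cannot be told apart, 1 member was less enriched in neurons and none more, beside 6.19% lower and 6.35% higher of all genes. Over genes averaging 5 CPM or more in these libraries, a level that RBFOX3 did not reach, 12.2% were lower and 11.5% higher. Unadjusted, 3 members had p under 0.05. The member called was CELF4, with an interaction of -2.06 ± 0.45 (edgeR adjusted p = 0.0060), resting on its 9 to 34 counts per HEK293T library. Without HEK293T cytoplasm replicate 1 it was -2.04 and no longer called (adjusted p = 0.052). ELAVL2 (0.60 ± 0.20) and NOVA1 (-0.47 ± 0.15) each had an adjusted p of 0.058. ELAVL2 was called higher with library size only (1.03, adjusted p = 0.0018), with filterByExpr (0.74, 0.021) and without neuron P-body replicate 1 or neuron cytoplasm replicate 2. NOVA1 was called lower with RLE (-0.54, adjusted p = 0.033), with DESeq2 (-0.54, 0.017), without ribosomal RNA genes (-0.61, 0.014) and without HEK293T P-body replicate 1 or either neuron P-body replicate. The RBFOX2 interaction was 0.01 with a 95% interval from -0.17 to 0.20, but 0.45 and called with library size only (adjusted p = 0.0047).

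All 9 members were more abundant in neurons than in liver bud progenitors, in both fractions, beside 26% of all genes higher and 25.8% lower in the cytoplasm and 18.4% higher and 22.7% lower in P-bodies. In the cytoplasm the log2 fold changes, neuron over liver bud, ran from 2.06 ± 0.07 for RBFOX2 and 2.50 ± 0.20 for ELAVL2 to 6.25 ± 0.18 for ELAVL4 and 6.54 ± 0.27 for RBFOX1. In P-bodies they ran from 2.02 ± 0.48 for RBFOX3 and 2.54 ± 0.07 for RBFOX2 to 5.44 ± 0.14 for NOVA2 and 7.21 ± 0.15 for ELAVL4. The RBFOX3 call in P-bodies was lost without liver bud P-body replicate 1 (2.25, adjusted p = 0.052) or replicate 2 (1.90, adjusted p = 0.098). ELAVL3 stood at 4.75 ± 0.10 in the cytoplasm and 2.78 ± 0.10 in P-bodies. In HEK293T the members divided differently: ELAVL2 was at 32.8 and 33.6 CPM in its cytoplasm, against 27.3 and 34.7 CPM in that of neurons, with overlap, whereas ELAVL3 was at 0.536 CPM or less in every HEK293T library.

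**Figure D5:**
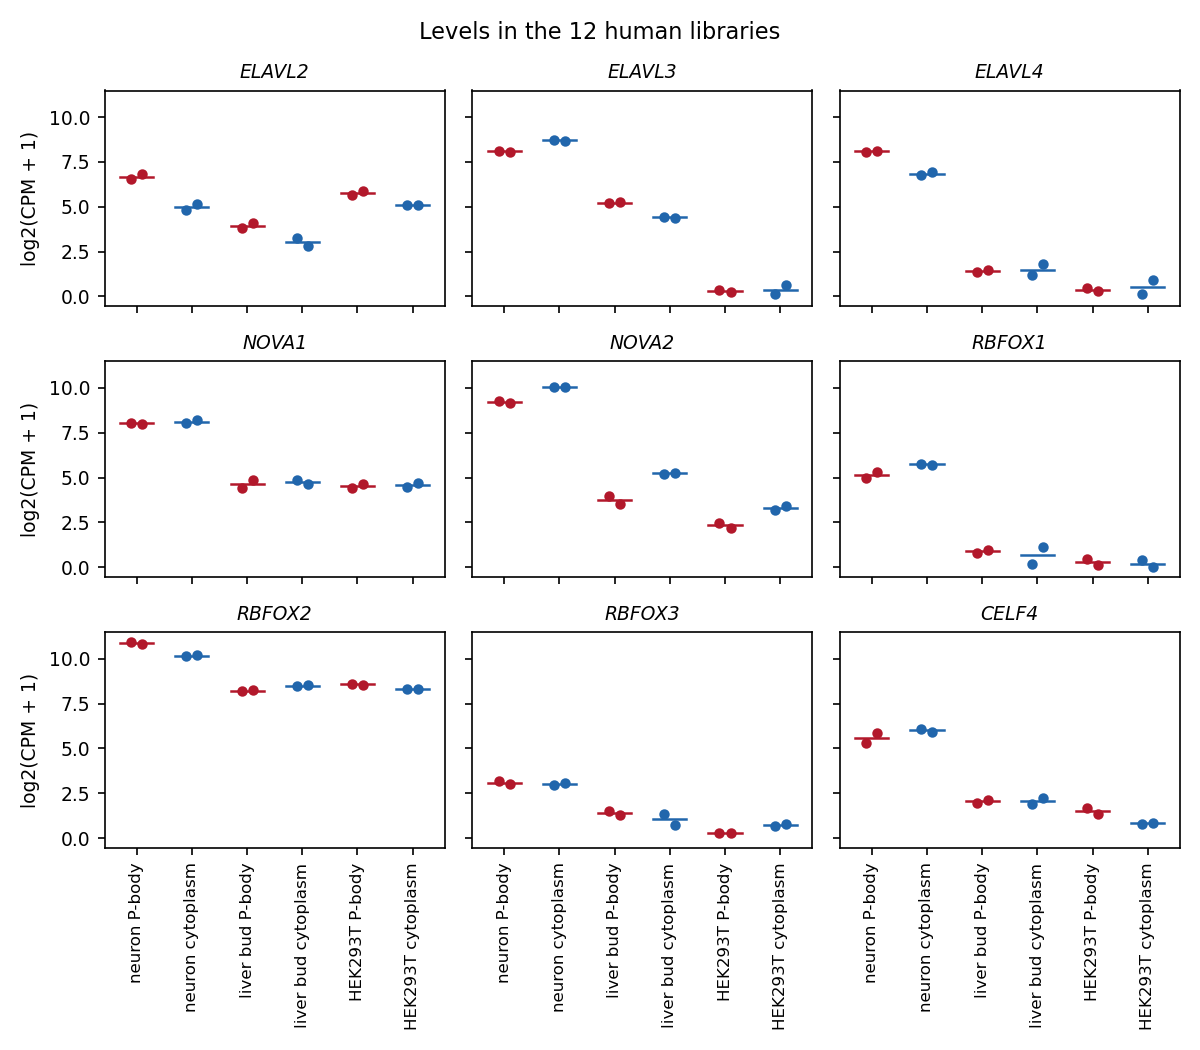
Level of each transcript as log2(CPM + 1) in the 12 human libraries, P-body in red and cytoplasm in blue, with lines at the means of 2 libraries. All 9 transcripts stand higher in neurons than in liver bud progenitors; ELAVL2 and RBFOX2 remain well above 0 in HEK293T, where ELAVL3, ELAVL4, RBFOX1 and RBFOX3 lie near 0.

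Per length, the order of the members within neurons changed between the fractions. In the cytoplasm RBFOX2 led at 161 ± 7.1 CPM per kilobase of longest transcript (SD, n = 2), followed by NOVA2 at 128 ± 2.0, ELAVL3 at 88.0 ± 0.84, NOVA1 at 39.9 ± 3.6, ELAVL4 at 28.8 ± 1.6, CELF4 at 16.6 ± 1.6, RBFOX1 at 10.7 ± 0.37, ELAVL2 at 7.78 ± 1.3 and RBFOX3 at 2.28 ± 0.15. In P-bodies RBFOX2 led at 262 ± 14, with NOVA2 (71.6 ± 3.5) and ELAVL4 (68.3 ± 1.3) next to each other and within their spread, then ELAVL3 at 57.9 ± 1.2 and ELAVL2 at 25.7 ± 2.9 behind NOVA1 (37.05 ± 0.98). By median transcript length the P-body order was RBFOX2 at 1239 ± 64, ELAVL3 at 325 ± 6.7, NOVA1 at 273.5 ± 7.2, ELAVL4 at 165 ± 3.2 and NOVA2 at 135 ± 6.7 CPM per kilobase, so that the places of ELAVL3, NOVA1 and NOVA2 depend on the length used. Per kilobase of longest transcript, RBFOX2 was above 99.5% of 20610 genes in the neuron cytoplasm, and RBFOX3 above 58.4%.

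Genes whose levels ran most like those of the members over the 12 human libraries (Pearson r of log2(CPM + 1), over 11052 genes averaging 5 CPM or more) are given as a description, since the libraries fall into few groups. ELAVL4 ran most like SLC6A5 and SLC17A6, the transporters of glycine and of vesicular glutamate (r = 0.994 for both). RBFOX1 ran most like MAP6, a microtubule stabilizer (0.997), and RBFOX2 like PJA1 (0.995) and the proneural factor NEUROG2 (0.992). RBFOX3 ran most like RIMS1 (0.986), a protein of the presynaptic active zone, and ATP6V1G2 (0.982), a proton pump subunit. For ELAVL3 these were PTN (0.998) and ULK2 (0.996), for NOVA2 MN1 and RHOBTB2 (0.997 each), and for CELF4 NAV3 (0.996) and BTBD9 (0.993). ELAVL2, which was also expressed in HEK293T, ran most like NIN, a centrosomal protein (0.99), and its r with ELAVL3 was 0.0761, against 0.881 between ELAVL3 and ELAVL4.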

How the data were processed

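RNA-seq of sorted P-bodies and pre-sort cytoplasm was analysed from the gene count tables the authors deposited, 1 for human and 1 for mouse. The counts are whole reads per gene, not normalized, and genes under 10 reads in total are not in the tables. By the study's methods, total RNA libraries were quantified with salmon in an nf-core pipeline and Smart-seq libraries aligned with hisat and counted with featureCounts (hg38, mm10), and the tables do not say which made each column. The authors' tables of fold changes and p-values were not used. CPM is counts over the deposited library total. That total includes ribosomal RNA, at 11.4% to 13.4% in neuron P-bodies and 21.5% to 24.9% in the neuron cytoplasm. Its share was lower in P-bodies than in the cytoplasm of every other cell type as well. CPM comparisons between fractions carry this difference.

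The test between fractions was edgeR's quasi-likelihood test (version 4.0.16, R 4.3.3; TMM; genes with 0 counts in all compared libraries left out; two-sided; Benjamini-Hochberg over all genes tested; called at an adjusted p under 0.05), cell types by interaction. DESeq2 1.42.0, other size factors, a filter on low counts, a replicate block and leaving out libraries were alternatives. The steps were tested on simulated data. Lengths, GC and sequences are from GENCODE 44 (hg38), matched by symbol to 92.5% of human genes. Levels between genes were compared per kilobase of longest transcript. The genes named are the 9 members, the highest and lowest 4 called of each other list, at most 8, and the 1 or 2 genes most like each member, of which those of NOVA1 are not reported here. The members, though taken by symbol, and the lists were chosen with earlier results of these data known. Floors cover counting error only, and the 95% intervals of log2 fold changes also hold the fitted spread between libraries. Correlations of same-numbered replicates' deviations, 0.0351 or less, gave no pairing.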

Additional observations from a re-analysis of the deposited data

Results flagged for a closer look

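In 4 cases the P-body enrichment of a member differed between cell types by the test of the interaction. ELAVL3 was lower in neuron P-bodies and higher in those of liver bud progenitors, a difference of -1.81 on the log2 scale. ELAVL4 was higher in neuron P-bodies and had a log2 fold change of -0.03 in liver bud progenitors, a difference of 1.12 that was lost in 5 fits with 1 library left out. RBFOX2 was higher in neuron P-bodies and had a log2 fold change of -0.12 in liver bud progenitors, a difference of 0.65. CELF4 was lower in neuron P-bodies and higher in those of HEK293T, a difference of -2.06 that rests on 9 to 34 counts per HEK293T library.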

How the results depend on the processing

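The calls on ELAVL2, ELAVL3, ELAVL4, NOVA2 and RBFOX2 in neurons, and those on ELAVL2 and NOVA2 in every cell type, held under all alternatives run. In neurons 3 members in place of 5 were lower with RLE size factors, library size only, filterByExpr or DESeq2, and 2 to 4 with a library left out, where the lone library is assumed to vary like the others. Library size only moved the median log2 fold change of all genes by 0.16 in neurons, -0.19 in liver bud progenitors, -0.13 in HEK293T, -0.40 in mESC, 0.36 and 0.43 in the interactions with liver bud and HEK293T, -0.38 between cytoplasms and 0.14 between P-bodies. Calls that were higher then made up 44.1% (against 55.7%) in liver bud progenitors, 28.2% (against 55.6%) in mESC, 78.9% and 88.2% (against 52% and 50.6%) in the interactions and 36.5% (against 50.2%) between cytoplasms.

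With library size only, RBFOX3 in neurons was 0.063, NOVA1 and CELF4 in liver bud progenitors -0.094 and -0.050, NOVA1 in HEK293T -0.072 and the NOVA2 interaction with HEK293T 0.29. With filterByExpr RBFOX3 in neurons was 0.0024. In liver bud progenitors 2 members were lower (NOVA2 and RBFOX2) with library size only and filterByExpr, and in mESC 1 with DESeq2. In the interaction with HEK293T 2 members (NOVA1 and CELF4) were lower with RLE, DESeq2 or without ribosomal RNA genes (an alternative chosen after seeing the data), 2 (ELAVL2 and RBFOX2) were higher with library size only and 1 (ELAVL2) with filterByExpr, and RBFOX2 was -0.055 with RLE, -0.055 with DESeq2 and -0.13 without ribosomal RNA genes. The replicate numbers did not pair the samples. With the replicate block, ELAVL2 (0.60) was also higher and NOVA1 (-0.46) also lower in the interaction with HEK293T, 1 higher and 2 lower in all, NOVA2 (0.38) was called in that with liver bud, and ELAVL4 in liver bud progenitors was 0.018. The cause was not tested.

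With a library left out, ELAVL4 in liver bud progenitors ranged from -0.44 to 0.55, NOVA1 from -0.14 to 0.29, RBFOX1 from -0.32 to 2.49 and CELF4 from -0.091 to 0.38. In HEK293T NOVA1 ranged from -0.070 to 0.18. ELAVL3 ranged from -1.14 to 1.38, ELAVL4 from -1.37 to 1.89 and RBFOX1 from -0.47 to 4.96, each on 10 counts or fewer per HEK293T library. In mESC Rbfox2 ranged from -0.15 to 0.013 and Rbfox3 from -0.73 to 0.29, and 1 to 2 members were lower. In the interaction with liver bud 1 to 2 members were higher and 1 to 3 lower. In that with HEK293T 0 to 1 were higher and 0 to 2 lower, with RBFOX2 from -0.047 to 0.073. ELAVL3 there ranged from -2.25 to 0.26 and ELAVL4 from -0.89 to 2.34, resting on the same low HEK293T counts. Over all genes, the neuron calls, 3220 higher and 3123 lower, became fewer without either cytoplasm replicate. They became more numerous without either P-body replicate. Per median transcript length, NOVA2 came after RBFOX2, ELAVL3 and NOVA1 in the neuron cytoplasm, and after these and ELAVL4 in P-bodies.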
